A study of Mus musculus with 6 samples.

Results

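The transforming growth factor beta (TGF-β) genes described here are the 9 rows of the liver count table with the symbols Tgfb1, Tgfb2 and Tgfb3 (ligands), Tgfbr1 and Tgfbr2 (receptors), Smad2 and Smad3 (receptor-activated SMADs), Smad7 (inhibitory SMAD) and Ltbp2 (latent TGF-β binding protein family), out of 52459 rows. The rule that picks them uses the symbols and no measured value, but the list was drawn up with earlier results of these data known. All 9 had enough counts to be among the 17032 genes tested. Liver RNA of 6 males of genotype Alb-Cre/Cas9 (F1 generation, strain C57BL6J), aged 8 months, was sequenced, with 3 livers in each of 2 groups. At 4 to 5 weeks of age, an AAV8 vector with the U6 promoter had been given intravenously and carried either a control guide RNA (sgCtrl, mice 5.1, 7.1 and 7.2) or a guide RNA against Prdx2 (sgPrdx2, mice 1.1, 1.3 and 3.2). Prdx2 encodes a peroxiredoxin, an enzyme that removes hydrogen peroxide. Mice of both groups received diethylnitrosamine (DEN), a liver carcinogen, at 100 mg/kg 3 weeks after the vector and then, 1 week later, a choline-deficient high-fat diet (CDAHFD) for 6 months, so that sgCtrl livers are injured livers too. Livers without DEN and diet were not analysed here. Cre under the albumin promoter switches Cas9 on in hepatocytes, and the paper describes the knockout as specific to these cells. RNA came from whole liver, which also holds other cell types and may hold hepatocytes that the vector did not reach. Editing of Prdx2 in each cell type was not measured in these data.

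TGF-β ligands are made as precursors and secreted in a latent form, held by their own propeptide and anchored to the matrix by latent TGF-β binding proteins and fibrillin. Integrins, proteases and thrombospondin release the active ligand, which binds TGFBR2, and TGFBR2 recruits and phosphorylates TGFBR1. TGFBR1 phosphorylates SMAD2 and SMAD3, which enter the nucleus with SMAD4 and regulate target genes, whereas SMAD7 blocks the receptor and is itself a target gene. In the injured liver, the pathway is known for turning stellate cells into collagen-producing myofibroblasts and for restraining the growth of hepatocytes.

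Total counts ranged from 37462102 to 46753629 in sgCtrl and from 40454021 to 56865293 in sgPrdx2 livers, and each of the 9 genes had at least 185 counts in every liver. Levels are given as CPM (counts of a gene relative to the total of its library), normalised by the TMM method, a scale on which log2 fold changes of all genes had a median of -0.02. Albumin took 6.61% to 7.01% of counts in sgCtrl and 9.28% to 11.3% in sgPrdx2 livers. Prdx2 RNA was 109, 117 and 132 CPM in sgCtrl livers 5.1, 7.1 and 7.2 and 99.0, 112 and 149 CPM in sgPrdx2 livers 1.1, 1.3 and 3.2, so the groups overlapped (log2 fold change 0.01, SE 0.18, adjusted p = 0.983 by edgeR). The labels could therefore not be checked on Prdx2 RNA, which small insertions and deletions need not lower. Liver sgPrdx2 3.2 stood apart from the other libraries in its dependence on transcript length, with a slope of -0.171 log2 units per doubling of exon length against 0.00306 to 0.0820 in the other 5 livers. The labels name no batch, and the groups share no first number of the mouse names, so that whatever this number marks cannot be told apart from the guide RNA.

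Tgfb1, Tgfb3 and Ltbp2 fell in sgPrdx2 livers, to 65.5%, 63.8% and 62.0% of their sgCtrl levels. Tgfbr1 and Tgfbr2 were at 70.2% and 71.8% of the sgCtrl level and did not pass the test, although both were lower in each sgPrdx2 liver than in each sgCtrl liver. Tgfb2, Smad2, Smad3 and Smad7 did not pass the test and overlapped between the groups. All 9 log2 fold changes were below 0, with a median of -0.48, while 51.7% of all genes tested were below 0. An adjusted p under 0.05 by edgeR's quasi-likelihood test, in the lower direction, was reached by 3 of the 9 genes and by 1.54% of all genes tested (3.33% in either direction, 1.79% higher). DESeq2 called the same 3 genes lower, and 5.78% of all genes. Separation of the groups with all sgPrdx2 livers below all sgCtrl livers was found for 5 of the 9 genes and for 17.5% of all genes tested.

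**Figure D1:**
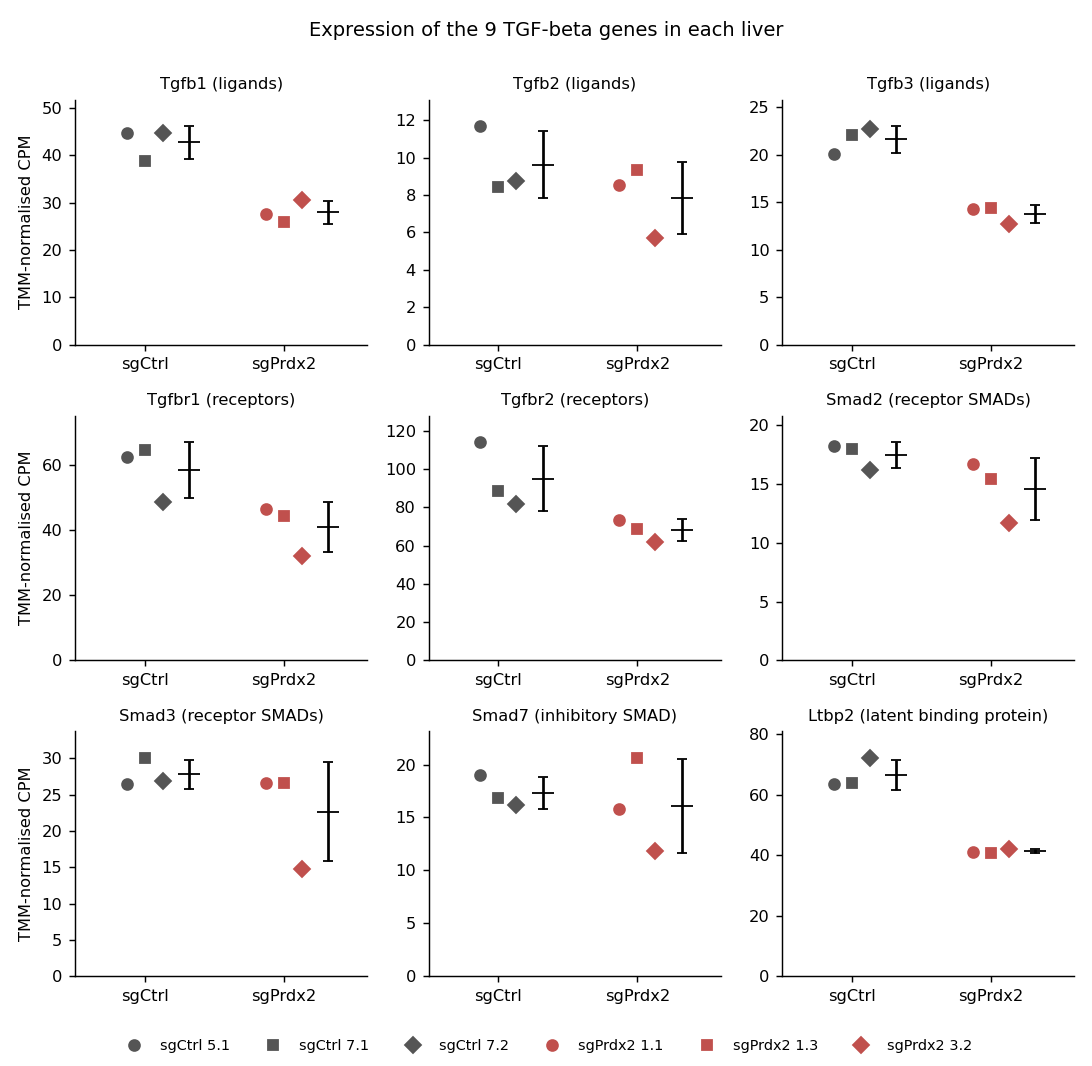
Level of each of the 9 genes in each liver, in TMM-normalised CPM on a linear axis that starts at 0, with sgCtrl livers in grey and sgPrdx2 livers in red. Horizontal marks and bars are the group mean ± SD (n = 3), and the groups stand clear of each other for Tgfb1, Tgfb3, Tgfbr1, Tgfbr2 and Ltbp2.

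Tgfb1 encodes the most studied ligand and is known to be made in the liver by macrophages and other nonparenchymal cells. It lies at chr7:25687002-25705077 (GRCm38, plus strand). Its level was 44.8, 38.7 and 44.6 CPM in sgCtrl livers 5.1, 7.1 and 7.2 and 27.5, 25.8 and 30.6 CPM in sgPrdx2 livers 1.1, 1.3 and 3.2. The highest sgPrdx2 liver, 3.2, was 8.16 CPM below the lowest sgCtrl liver, 7.1. The means were 42.7 ± 3.45 and 28.0 ± 2.41 CPM (SD, n = 3 each), a log2 fold change of -0.61 (SE 0.12, 95% interval -0.90 to -0.32, adjusted p = 0.0466 by edgeR). Tgfb1 was the only one of the 9 genes besides Ltbp2 whose highest sgPrdx2 value was in liver 3.2.

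Tgfb3, a ligand known for its roles in palate closure and wound repair, lies at chr12:86056745-86079041 (minus strand). It was at 20.03, 22.1 and 22.7 CPM in sgCtrl livers 5.1, 7.1 and 7.2 and at 14.3, 14.4 and 12.7 CPM in sgPrdx2 livers 1.1, 1.3 and 3.2. The livers of each group lay close together and the groups did not overlap. The means of 21.6 ± 1.39 and 13.8 ± 0.955 CPM (SD, n = 3 each) gave a log2 fold change of -0.65 (SE 0.12, 95% interval -0.93 to -0.37, adjusted p = 0.0411 by edgeR). Ttll5, Gm37804 and Gm48008 overlap Tgfb3 on the opposite strand, and exons of such genes cover up to 12.4% of the Tgfb3 exon bases. Stretches of 50 bases were shared with Gm37804 and Gm48008 and not with Ttll5. Since no strand setting is stated for the counting, reads from the covered bases cannot be assigned with certainty.

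Tgfb2, a ligand with known roles in heart and eye development, lies at chr1:186622792-186705989 (minus strand) and was the least abundant of the 9 genes. It measured 11.7, 8.43 and 8.77 CPM in sgCtrl livers 5.1, 7.1 and 7.2 and 8.54, 9.36 and 5.68 CPM in sgPrdx2 livers 1.1, 1.3 and 3.2. sgPrdx2 livers 1.1 and 1.3 were within the sgCtrl range and liver 3.2 was below it. The log2 fold change was -0.29 (SE 0.22, 95% interval -0.81 to 0.23, adjusted p = 0.452 by edgeR), an interval that holds both no change and a level of 57.2% of that in sgCtrl livers.

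Counts of the 3 ligands summed to 76.5, 69.3 and 76.1 CPM in sgCtrl and to 50.4, 49.6 and 49.0 CPM in sgPrdx2 livers (p = 0.1, two-sided exact permutation test, the smallest p that 3 livers against 3 allow). The sum was lower in each sgPrdx2 liver, and the livers within a group differed little. No difference in the makeup of this sum was detected with 3 livers a group, which does not show that it was the same. Tgfb1 took 57.7% ± 1.53 of it in sgCtrl and 56.4% ± 5.40 in sgPrdx2 livers (SD, n = 3 each, p = 0.8, exact permutation test). The share of Tgfb2 was 13.0% ± 2.01 and 15.8% ± 3.77 (p = 0.3, exact permutation test), and that of Tgfb3 was 29.3% ± 2.89 and 27.8% ± 1.63 (p = 0.4, exact permutation test). Liver sgPrdx2 3.2 differed here from the other sgPrdx2 livers. In sgPrdx2 1.1 and 1.3, Tgfb1 took 54.7% and 52.1%, below the sgCtrl range of 55.9% to 58.7%, and Tgfb2 took 17.0% and 18.9%, above the sgCtrl range of 11.5% to 15.3%, whereas in sgPrdx2 3.2 the shares were 62.5% and 11.6%. Without sgPrdx2 3.2 the difference in share, sgPrdx2 minus sgCtrl, went from -1.29 to -4.32 percentage points for Tgfb1 and from 2.82 to 4.92 for Tgfb2 (p = 0.2 each, exact permutation test, the smallest p that 3 livers against 2 allow).

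Ltbp2 encodes a secreted matrix protein that binds elastic fibres and, unlike the other members of its family, is not known to hold the latent ligand. It lies at chr12:84783212-84876532 (minus strand), on the chromosome of Tgfb3. Its level was 63.6, 64.0 and 72.3 CPM in sgCtrl livers 5.1, 7.1 and 7.2 and 41.2, 40.8 and 42.0 CPM in sgPrdx2 livers 1.1, 1.3 and 3.2. The sgPrdx2 livers were nearly alike, with a coefficient of variation of 1.497%, and the gap to the lowest sgCtrl liver was 21.6 CPM. The means were 66.6 ± 4.90 and 41.3 ± 0.619 CPM (SD, n = 3 each), a log2 fold change of -0.69 (SE 0.12, 95% interval -0.96 to -0.42, adjusted p = 0.0383 by edgeR). This was the lowest log2 fold change of the 9 genes. The opposite-strand gene D030025P21Rik covers 9.34% of the Ltbp2 exon bases, and its reads could not be separated from those of Ltbp2.

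Promoter sequences were taken from RefSeq (GRCm38.p6) as 300 bases, 250 before and 50 from the start of the transcript on, and 6 of the 9 genes had an entry (Tgfb1, Tgfb2, Tgfbr1, Tgfbr2, Smad3 and Ltbp2). Those of Tgfb1 and Ltbp2, which fell, and of Tgfb2, a ligand that did not pass the test, are printed to show how differently the 3 genes begin. Capitals mark matches on either strand to the SMAD-binding motif CAGAC (or GTCTG), the GC box GGGCGG (or CCGCCC) and the TATA box TATAAA (or TTTATA), and no match overlaps another.
Tgfb1 (chr7:25686752-25687051, plus strand): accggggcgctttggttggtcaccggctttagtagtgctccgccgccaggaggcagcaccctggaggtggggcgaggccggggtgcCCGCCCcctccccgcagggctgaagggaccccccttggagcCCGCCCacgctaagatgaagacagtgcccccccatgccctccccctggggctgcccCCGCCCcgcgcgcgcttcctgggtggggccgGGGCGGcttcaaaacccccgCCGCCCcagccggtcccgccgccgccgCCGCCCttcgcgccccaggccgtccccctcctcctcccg
Ltbp2 (chr12:84876442-84876741, minus strand): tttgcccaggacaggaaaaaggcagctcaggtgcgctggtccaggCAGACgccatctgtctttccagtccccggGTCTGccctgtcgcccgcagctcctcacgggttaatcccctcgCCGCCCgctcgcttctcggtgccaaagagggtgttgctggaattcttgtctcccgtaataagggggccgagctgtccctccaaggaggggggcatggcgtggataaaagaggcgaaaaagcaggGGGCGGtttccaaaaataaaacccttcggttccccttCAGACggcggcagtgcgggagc
Tgfb2 (chr1:186705940-186706239, minus strand): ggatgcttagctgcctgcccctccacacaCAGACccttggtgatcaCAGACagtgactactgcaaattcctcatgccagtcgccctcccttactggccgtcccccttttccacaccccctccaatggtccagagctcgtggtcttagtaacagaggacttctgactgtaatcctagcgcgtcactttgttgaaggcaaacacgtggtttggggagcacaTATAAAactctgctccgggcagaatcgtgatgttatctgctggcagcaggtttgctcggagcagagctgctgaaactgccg
The Tgfb1 promoter, with 77.0% G and C, held 6 GC boxes and no match to the SMAD motif or the TATA box. That of Ltbp2 (61.0% G and C) held 3 SMAD motifs and 2 GC boxes, and that of Tgfb2 (54.3% G and C) held 2 SMAD motifs, no GC box and a TATA box whose first base lies 31 bases before the start. Among 32851 mouse promoters of the same length, 49.6% held the SMAD motif, 35.7% the GC box and 13.6% the TATA box. Of the other promoters, those of Tgfbr1 and Smad3, which did not pass the test, held 2 GC boxes each, and that of Tgfbr2 held 1 SMAD motif. A match in letters describes the window and is not a bound site.

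Tgfbr2 encodes the type II receptor, which binds the ligand, and lies at chr9:116084293-116175360 (minus strand). Its level was 114, 88.5 and 81.9 CPM in sgCtrl livers 5.1, 7.1 and 7.2 and 73.6, 68.9 and 61.9 CPM in sgPrdx2 livers 1.1, 1.3 and 3.2. All sgPrdx2 livers were below all sgCtrl livers, and sgCtrl 5.1 was well above the other 5 livers. The log2 fold change was -0.48 (SE 0.16, 95% interval -0.85 to -0.10), with an unadjusted p of 0.0185 and an adjusted p of 0.128 in the edgeR fit over all genes.

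Tgfbr1 encodes the type I receptor, the kinase that phosphorylates the SMADs, and lies at chr4:47353222-47414931 (plus strand). It was at 62.4, 64.5 and 48.6 CPM in sgCtrl livers 5.1, 7.1 and 7.2 and at 46.6, 44.4 and 32.2 CPM in sgPrdx2 livers 1.1, 1.3 and 3.2. The groups did not overlap, but only 2.08 CPM separated sgCtrl 7.2 from sgPrdx2 1.1. The log2 fold change of -0.51 (SE 0.18, 95% interval -0.93 to -0.09) had an unadjusted p of 0.0229 and an adjusted p of 0.141 in the edgeR fit over all genes. Both receptor intervals lay below 0 before adjustment, and with the correction for transcript length and GC content the log2 fold changes were -0.35 for Tgfbr1 and -0.33 for Tgfbr2 (adjusted p of 0.112 and 0.187 by edgeR).

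Smad2, one of the SMADs that the receptor phosphorylates, lies at chr18:76241580-76310963 (plus strand). Its level was 18.2, 18.0 and 16.2 CPM in sgCtrl livers 5.1, 7.1 and 7.2 and 16.7, 15.4 and 11.6 CPM in sgPrdx2 livers 1.1, 1.3 and 3.2. sgPrdx2 1.1 was within the sgCtrl range, and sgPrdx2 3.2 was the lowest of all livers. The log2 fold change was -0.26 (SE 0.16, 95% interval -0.63 to 0.11, adjusted p = 0.344 by edgeR). Without liver sgPrdx2 3.2 it was -0.11, and with the length and GC correction -0.08.

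Smad3, a receptor-activated SMAD that binds DNA directly, lies at chr9:63646767-63757994 (minus strand). It measured 26.4, 30.1 and 26.9 CPM in sgCtrl livers 5.1, 7.1 and 7.2 and 26.6, 26.6 and 14.7 CPM in sgPrdx2 livers 1.1, 1.3 and 3.2. Livers sgPrdx2 1.1 and 1.3 lay within the sgCtrl range, and liver 3.2 alone was below it. The log2 fold change was -0.30 (SE 0.22, 95% interval -0.81 to 0.22, adjusted p = 0.437 by edgeR) with all livers and -0.06 without sgPrdx2 3.2.

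Smad7, the inhibitory SMAD, lies at chr18:75367529-75395935 (plus strand). Its values were 19.0, 16.8 and 16.2 CPM in sgCtrl livers 5.1, 7.1 and 7.2 and 15.8, 20.7 and 11.8 CPM in sgPrdx2 livers 1.1, 1.3 and 3.2. The sgPrdx2 livers held both the highest and the lowest value of the 6 livers. The log2 fold change was -0.10 (SE 0.20, 95% interval -0.57 to 0.37, adjusted p = 0.775 by edgeR). It was 0.09 without sgPrdx2 3.2 and -0.31 without sgPrdx2 1.3. Relative to the summed level of Smad2 and Smad3, Smad7 was at 0.383 ± 0.0386 in sgCtrl and 0.435 ± 0.0642 in sgPrdx2 livers (SD, n = 3 each, p = 0.3, exact permutation test), a difference within the spread between livers.

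**Figure D2:**
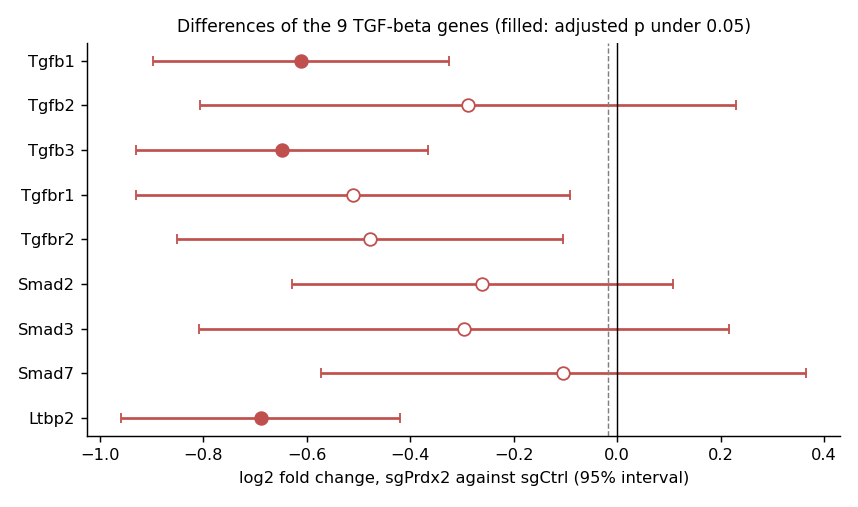
Log2 fold change of each of the 9 genes in sgPrdx2 against sgCtrl livers (n = 3 each), with the 95% interval of the edgeR fit as a bar and filled points for an adjusted p under 0.05. The dashed line is the median of all genes, -0.02, and the filled points of Tgfb1, Tgfb3 and Ltbp2 lie between -0.61 and -0.69 with intervals that end below -0.30.

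Per kilobase of exon, which allows genes to be compared in level, Tgfbr2 was the most abundant in sgCtrl livers with 11.6 ± 2.08 CPM per kilobase (SD, n = 3). Tgfbr1 (8.96 ± 1.32), Tgfb1 (8.47 ± 0.684) and Ltbp2 (8.14 ± 0.598) followed, and these 3 neighbours overlapped between livers. Tgfb3 (6.39 ± 0.412), Smad3 (5.02 ± 0.358) and Smad7 (3.83 ± 0.330) came next, each without overlap with the gene above it. Smad2 (1.99 ± 0.125) and Tgfb2 (1.66 ± 0.310) were lowest and overlapped. In sgPrdx2 livers the order of the means was the same except that Smad3 (4.083 ± 1.23 CPM per kilobase) came before Tgfb3 (4.075 ± 0.282), a difference far within the spread between livers.

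The calls for Tgfb1, Tgfb3 and Ltbp2 were each made with RLE, upper-quartile and housekeeping scaling, with DESeq2 and under the other 4 alternatives that kept all livers. Housekeeping scaling moved the median of all genes to -0.38, which favours calls in the lower direction. The calls were not made with every set of livers. With any one of sgCtrl 5.1, 7.1 and 7.2 or sgPrdx2 1.1 and 1.3 left out, 0 of the 9 genes were called, and 3 were called without sgPrdx2 3.2. Over all genes, 567 were called with all livers and 0 without sgCtrl 5.1 or 7.2 or sgPrdx2 1.1 or 1.3. In these settings without any call, the loss was not particular to the 9 genes. Without sgCtrl 7.1, 394 genes were still called, but 0 of the 9. Adjusted p was then 0.0596 for Tgfb1, 0.0846 for Tgfb3 and 0.0527 for Ltbp2 (edgeR). Without sgPrdx2 3.2, 619 genes were called. With each liver left out in turn, log2 fold changes lay between -0.68 and -0.54 for Tgfb1, -0.70 and -0.58 for Tgfb3 and -0.72 and -0.63 for Ltbp2. Their adjusted p ran from 0.0385 to 0.171, 0.0409 to 0.162 and 0.0376 to 0.153, in that order (edgeR). Without sgPrdx2 3.2, Tgfb2, Smad2 and Smad3 came to -0.09, -0.11 and -0.06, whereas Tgfb1, Tgfb3 and Ltbp2 were at -0.67, -0.58 and -0.69. Liver sgPrdx2 3.2 had the lowest value of its group for 7 of the 9 genes, the exceptions being Tgfb1 and Ltbp2.

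**Figure D3:**
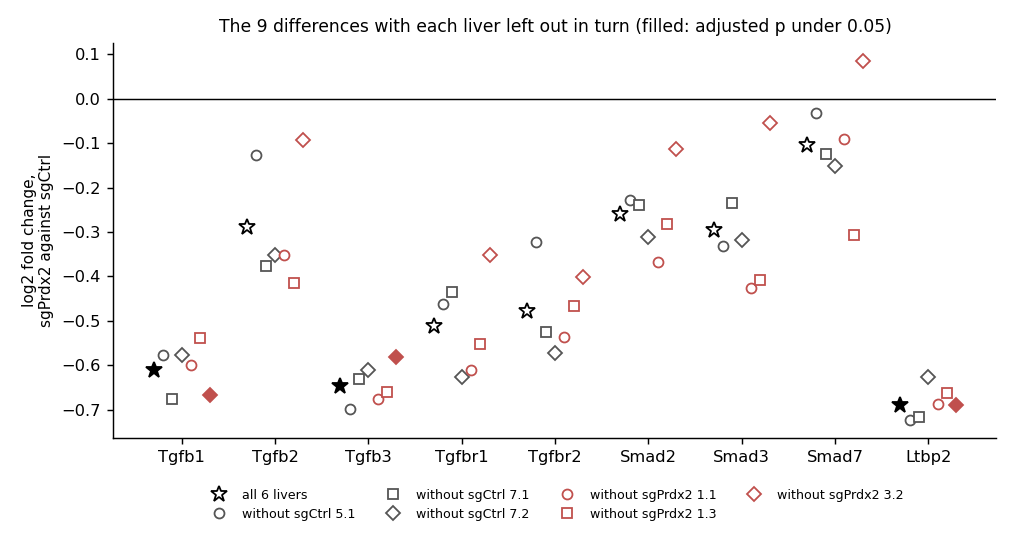
Log2 fold change of each of the 9 genes with all 6 livers (stars) and with each liver left out in turn, filled where the adjusted p of the edgeR fit was under 0.05. Without sgPrdx2 3.2 (red diamonds) Tgfb1, Tgfb3 and Ltbp2 stay at or below -0.58, while Smad3 comes to -0.06 and Smad7 to 0.09.

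Across 6 livers, Pearson's r of log2 levels was 0.97 between Tgfb3 and Ltbp2, 0.96 between Tgfb1 and Ltbp2 and 0.88 between Tgfb1 and Tgfb3. These genes were all called lower, so the group difference raises their r. Around their group means, Tgfb1 and Tgfb3 went in opposite directions in every liver except sgCtrl 7.2. In sgPrdx2 3.2 they were at 0.13 and -0.12 log2 units. Tgfbr1 and Smad2 (r = 0.95) and Smad2 and Smad3 (r = 0.94) were also close. So were Tgfb2 and Smad7 (0.89) and Tgfbr1 and Tgfbr2 (0.88). All genes of these pairs had their lowest sgPrdx2 value in liver 3.2. The lowest r was that of Tgfb1 and Smad7 (0.08). Among 14123 genes with mean levels of 1 CPM or more, those most like Tgfb1 over the 6 livers were Ncf1 (r = 0.996), a subunit of the phagocyte NADPH oxidase, Pgd (0.996), an enzyme of the pentose phosphate pathway, and Plcg2 (0.992), a signalling phospholipase of immune cells. Ltbp2 was followed most closely by Tlnrd1 (r = 0.999), Aldh18a1 (0.993), an enzyme of proline synthesis, and Emilin2 (0.990), a matrix glycoprotein. Tgfb3 was followed by Naa25 (0.997), Cxcl2 (0.996), a neutrophil chemokine, and Nup93 (0.994), a nuclear pore protein. These correlations describe 6 points that hold both groups, so a gene that differs between the groups in the same way as a member correlates with it.

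Among the other genes, Tgfbr1 was most like Mettl2 (r = 0.999), Zswim8 (0.998) and Pcdhb22 (0.996), and Tgfbr2 most like Pi4ka (0.997), Traf7 (0.991) and Mgat4a (0.990). Smad2 was most like Adamtsl3 (0.998), Adap2 (0.998) and Msrb3 (0.997), and Smad3 most like Ankrd50, Mtmr3 and Rapgef2 (0.998 each). Tgfb2 was closest to Emp2 (0.993), Ankrd6 (0.992) and Pom121 (0.991), and Smad7 to 6030458C11Rik (0.988), Trappc6b (0.987) and Dact1 (0.984). None of these 18 genes passed the test, with adjusted p of at least 0.106 (edgeR).

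Of 94 other genes of the wider pathway, 89 were tested (Foxh1, Acvr1c, Bmpr1b, Grem1 and Nog had too few counts), and 6 of them fell, 0 rose and 83 did not pass the test. Their median log2 fold change was -0.25, with 66 of the 89 below 0 and 34 of the 89 whose sgPrdx2 livers were all below the sgCtrl livers. Over all genes tested, 1.54% were called lower, 51.7% were below 0 and 17.5% had all sgPrdx2 livers below the sgCtrl livers. In the machinery of latency and activation, 2 of 18 genes fell and 16 did not pass the test (median -0.33). Fbn1, encoding fibrillin 1, the microfibril protein on which latent complexes are stored, was at 37.3, 49.2 and 46.1 CPM in sgCtrl and 28.7, 26.5 and 21.5 CPM in sgPrdx2 livers (log2 fold change -0.79, SE 0.16, adjusted p = 0.0466 by edgeR). Nrros, which holds latent TGF-β1 on macrophages and microglia, was at 36.0, 31.7 and 34.4 CPM in sgCtrl and 21.7, 22.5 and 23.8 CPM in sgPrdx2 livers (-0.59, SE 0.11, adjusted p = 0.0430). Neither gene overlapped between groups. Thbs1, encoding the activator thrombospondin 1, was at 28.0 ± 2.94 in sgCtrl and 11.9 ± 4.67 CPM in sgPrdx2 livers (SD, n = 3 each) but did not pass the test (-1.23, adjusted p = 0.0561), and was chosen after its values were seen.

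Among accessory receptors, 0 of 4 genes passed the test (median log2 fold change -0.22). The endothelial type I receptor Acvrl1 was at 22.1 ± 1.72 in sgCtrl and 15.5 ± 3.01 CPM in sgPrdx2 livers (SD, n = 3 each, -0.51, adjusted p = 0.111 by edgeR), and the coreceptors Tgfbr3 and Eng were at -0.31 and -0.14. Of the 5 other SMADs, 0 passed the test. Smad4, the common partner of the receptor-activated SMADs, was at 30.3 ± 2.04 and 24.4 ± 3.92 CPM (-0.31, adjusted p = 0.236), and Smad1 and Smad6 of the BMP arm were at -0.24 and 0.12. Of the 15 SMAD cofactors and regulators tested, 0 passed the test, with a median of -0.25. The corepressors Skil and Ski were at -0.55 and -0.33 and the ubiquitin ligase Trim33 at -0.34 (adjusted p of 0.193, 0.240 and 0.268 by edgeR).

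Of 22 known target genes of the pathway, 3 fell, 0 rose and 19 did not pass the test, beside 1.54% of all genes called lower. Their median log2 fold change was -0.65, and in 14 of the 22 the sgPrdx2 livers were all below the sgCtrl livers, as in 17.5% of all genes. Cdkn1a, encoding the cell cycle inhibitor p21, was at 30.6, 41.5 and 38.7 CPM in sgCtrl and 18.2, 19.9 and 14.4 CPM in sgPrdx2 livers (log2 fold change -1.08, SE 0.17, adjusted p = 0.0358 by edgeR). Col4a1, a basement membrane collagen, was at 219, 286 and 337 CPM and at 149, 158 and 115 CPM (-0.997, SE 0.20, adjusted p = 0.0466). Postn, encoding the matrix protein periostin, was at 22.0, 37.7 and 34.2 CPM and at 15.5, 15.3 and 16.9 CPM (-0.98, SE 0.20, adjusted p = 0.0466). The groups were separate for each of these 3 genes. Among the others, Fn1, encoding fibronectin and chosen after its values were seen, was at 0.34 (adjusted p = 0.417).

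**Figure D4:**
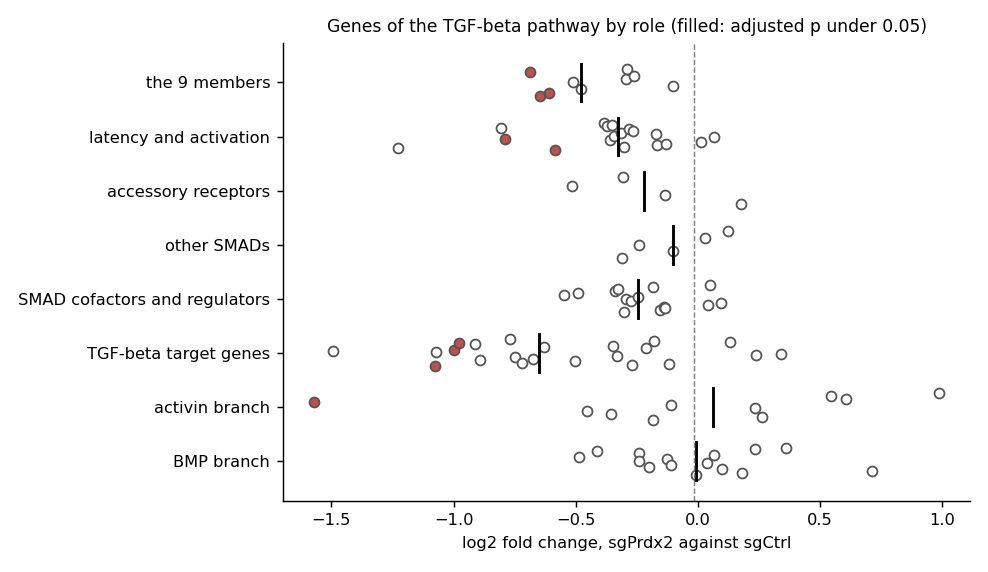
Log2 fold changes of the 9 genes and of the 89 other pathway genes tested, grouped by role, each point being 1 gene (vertical position within a group has no meaning) and filled where the adjusted p of the edgeR fit was under 0.05. Black bars are group medians, which lie between -0.65 (target genes) and 0.06 (activin branch), and the dashed line is the median of all genes.

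TGF-β genes are expressed in several liver cell types, and some markers of these cell types differed between the groups. In a whole liver, fewer cells of a type and less RNA per cell cannot be told apart. Of 12 macrophage markers, 12 had log2 fold changes below 0 (median -0.57) and 4 fell (Mpeg1, Cybb, Msr1 and Gpnmb), and their summed level was 2101 to 2613 CPM in sgCtrl and 1350 to 1416 CPM in sgPrdx2 livers. Of 12 stellate cell and myofibroblast markers, 0 passed the test (median -0.49), with summed levels of 2427 to 2771 and 1772 to 1873 CPM. Of 8 markers of portal fibroblasts and mesothelial cells, 1 fell (Fbln2, median -0.52), with sums of 172 to 217 and 138 to 145 CPM. The sums of these 3 lists, and of the endothelial and cholangiocyte lists, were below the sgCtrl range in all sgPrdx2 livers. Of the single markers this held for 8 of 12, 7 of 12 and 3 of 8 in the macrophage, stellate cell and portal fibroblast lists. It held for 4 of 9 endothelial and 3 of 7 cholangiocyte markers, and for 17.5% of all genes tested. Over all genes tested, 1.54% were called lower.

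Of 9 endothelial markers, 1 fell (Pecam1, median -0.39), with sums of 293 to 305 CPM in sgCtrl and 219 to 288 CPM in sgPrdx2 livers. Cholangiocyte markers, 0 of 7 past the test (median -0.37), summed to 1678 to 1904 and 1261 to 1445 CPM. Of 9 lymphocyte markers, 1 fell (Cd8a, median -0.19), with overlapping sums of 29.2 to 39.1 and 28.2 to 33.9 CPM. None of the 4 neutrophil markers tested (median -0.29, sums of 22.0 to 29.1 and 18.7 to 23.3 CPM) and none of the 3 platelet markers tested (median -0.14, sums of 9.83 to 13.4 and 9.67 to 14.4 CPM) passed the test. Hepatocyte markers went the other way, with 11 of 11 tested above 0 and a median of 0.72. Of these, 4 rose (Alb, Apoa1, Ttr and Cyp2e1), where 1.79% of all genes tested were called higher and 1.54% lower. The hepatocyte sums were 86695 to 96457 CPM in sgCtrl and 148378 to 197047 CPM in sgPrdx2 livers. No listed marker with a row in the table was at 0 counts in all livers. The part of cell type makeup in the lower Tgfb1, Tgfb3 and Ltbp2 levels was not tested.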

How the data were processed

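RNA-Seq of 6 mouse livers was analysed (3 sgCtrl and 3 sgPrdx2, grouped by the sample labels). The authors deposited whole-number counts of reads per gene for 52459 genes, without normalization. Libraries had been prepared with 500 ng of RNA. The submitters' processing notes name HISAT2, HTSeq, DESeq2 and GRCm38 without versions, and the strand setting and annotation are not given in the sources used here. The authors also deposited their own DESeq2 comparison of the groups (mean levels, fold changes, p-values), which was not used. Any shift in how reads of overlapping genes or of long transcripts were counted enters the counts as deposited.

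In edgeR 4.0.16 (R 4.3.3), genes were filtered by filterByExpr (minimum count 10), scaled by TMM and tested by the quasi-likelihood test over 17032 genes with Benjamini-Hochberg adjustment, a gene being called at an adjusted p under 0.05. No row lacked a gene name. The standard error of a log2 fold change is its size over the root of the F statistic. Single values per liver were compared by two-sided exact permutation tests. The edgeR p-values weigh a difference against the spread between these 3 livers a group, with that spread estimated partly from all genes tested. At these depths 3 counts stand for 0.0555 to 0.0921 CPM, which covers counting error only. No 2 libraries agreed within sampling noise (chi-square per degree of freedom of at least 31.9). The fit was tested on simulated data.

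Loci, exon lengths and overlaps are from GENCODE M21 (GRCm38), and promoters from RefSeq (GRCm38.p6). Likeness of genes was Pearson's r of log2(CPM + 0.01). The 9 genes, the pathway lists and the cell type markers were chosen with earlier results of these data known. Named were all 9 genes, Prdx2, in each pathway list the called genes or otherwise the up to 3 with the smallest p, the 3 genes most like each of the 9, and called cell type markers. Alternatives were RLE, upper-quartile and housekeeping scaling, DESeq2 1.42.0, robust dispersion, a count filter dropped or set to 10 counts in all livers, offsets that remove each library's trend on transcript length and GC content, and leaving out each liver. For shares and ratios, CPM without TMM factors and CPM per kilobase were tried. Results on some single genes are not reported here.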

Additional observations from a re-analysis of the deposited data

How the results depend on the processing

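The 9 log2 fold changes kept their direction under the 8 alternatives with all livers, and Tgfb1, Tgfb3 and Ltbp2 were called in each. Housekeeping scaling placed the median of all genes at -0.38 and that of the 9 genes at -0.84, with 989 genes and 18 of the pathway called. Relative to that median Tgfb1, Tgfb3 and Ltbp2 were at -0.60, -0.62 and -0.67. Calls over all genes, 567 with 6 in the pathway, were 1128 and 13 without a filter, 993 and 11 with the length and GC correction and 2048 and 18 with DESeq2. With a liver left out, calls ranged from 0 to 619 over all genes, 0 to 9 in the pathway and 0 to 3 among the 9. They were 0 over all genes without sgCtrl 5.1 or 7.2 or sgPrdx2 1.1 or 1.3, where 3114 to 3993 genes had an unadjusted p under 0.05 in edgeR, and 394 without sgCtrl 7.1, with 1 pathway gene. A group then held 2 livers. The median of the 9 ranged from -0.57 to -0.33. Without sgPrdx2 3.2, Smad7 turned to 0.0854. The share of Tgfb1 among the ligands, 1.29 percentage points lower in sgPrdx2 livers with all livers (-1.29), was higher by 0.861 without sgPrdx2 1.3 and ranged from -4.32 to 0.861 over the livers left out, and that of Tgfb2 from 1.29 to 4.92. Other shares and the ratio kept their direction. No paired analysis was made, because the labels name no pairs of livers across the groups. Within groups, sgCtrl 7.1 and 7.2 and sgPrdx2 1.1 and 1.3 share the first number of the mouse names. The labels do not say what this number marks, so whether these livers are independent of each other is not known. With 3 livers a group, log2 fold changes of the 9 genes had standard errors of 0.12 to 0.22.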

Other observations

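The related activin and BMP branches did not share one direction. Of 10 activin branch genes tested, 1 fell, 0 rose and 9 did not pass the test, with a median log2 fold change of 0.06. Inhbb, encoding the beta B subunit of activin, was at 8.66, 8.45 and 10.7 CPM in sgCtrl livers 5.1, 7.1 and 7.2 and at 2.96, 4.09 and 2.24 CPM in sgPrdx2 livers 1.1, 1.3 and 3.2. The groups stood far apart, and the log2 fold change of -1.57 (SE 0.24, adjusted p = 0.0358 by edgeR) was lower than that of any of the 9 TGF-β genes. Inhbc, a liver-enriched activin subunit, was instead at 42.2, 60.4 and 46.4 CPM in sgCtrl and 79.9, 66.9 and 70.4 CPM in sgPrdx2 livers, higher in each sgPrdx2 liver without passing the test (0.54, adjusted p = 0.103, chosen after its values were seen).

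Of 15 BMP branch genes tested, 0 passed the test, 8 were below 0 and the median was -0.01. Chrd, encoding the BMP antagonist chordin, was at 5.11 ± 0.899 in sgCtrl and 8.39 ± 0.460 CPM in sgPrdx2 livers (SD, n = 3 each, log2 fold change 0.71, adjusted p = 0.0631 by edgeR). Hfe2, encoding the BMP coreceptor hemojuvelin, was at 0.36 and Bmp7 at -0.49 (adjusted p of 0.223 each).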
